A study of Mus musculus with 2 samples.

Results

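The genes described here are Jak2, Stat5a, Stat5b, Sh2b3, Cish, Socs1, Socs2 and Socs3, the signalling core and the feedback inhibitors of the pathway that runs from the thrombopoietin receptor through JAK2 and STAT5. They were chosen by name, 8 of 21853 protein-coding genes. For each gene, every peak of open chromatin overlapping the gene body or the 50 kb on either side was taken. The windows held 45 of 31532 open regions in the conservative list of both libraries, which is the main list below and was thresholded on the irreproducible discovery rate (IDR). A region is a run of overlapping peaks, and its summit and signal are those of its strongest peak.

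The assay was ATAC-seq, which uses a transposase to cut accessible DNA. It was run on haematopoietic stem cells from C57BL/6J mice, given as adult and as 5 to 6 weeks of age. There was 1 group of 2 libraries, with no genotype, treatment or control group to compare, and the labels give sex as not collected. Both libraries, labelled biological replicates 1 and 2, carry 1 donor identifier, the labels do not say whether they are separate animals, and differences between them may be technical. No sorting markers are named, and a starting quantity of 50000 cells is given for replicate 2 only.

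The files list peaks and not reads, so read depth is unknown. Replicate 1 had 53911 peaks in its IDR thresholded list and replicate 2 had 33493. A peak's signal is the authors' value, with no stated scaling, so signals were compared within a list and set beside that list's own median. In a bulk library, fewer cells with an open site and a site less open in every cell cannot be told apart. Among 8 stem and progenitor markers (Kit, Ly6a, Procr, Slamf1, Meis1, Fgd5, Hlf and Ctnnal1), 4 had a promoter peak in the main list, where 51.9% of all protein-coding genes had one, and 8 in the pooled pseudoreplicated list (66.3% of all genes). Among 7 markers of mature or other cells the counts were 1 (Col1a1, a fibroblast collagen gene, signal 7.56) and 3, and Cd3e, Elane and Alb had no promoter peak in any of the 8 lists.

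Thrombopoietin keeps haematopoietic stem cells quiescent and sustains platelet production. Its receptor has no enzyme activity of its own and works through the kinase JAK2, which phosphorylates the transcription factors STAT5A and STAT5B. These enter the nucleus as dimers, bind DNA at the palindrome TTCNNNGAA, and raise transcription of inhibitors that act back on the receptor and the kinase, among them CISH and the SOCS proteins. SH2B3, also called LNK, is an adaptor that restrains JAK2 and is known for limiting stem cell and platelet numbers.

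In the main list, 7 of the 8 genes had a promoter peak, defined as a summit within 1 kb of the start site (TSS, transcription start site) of any protein-coding transcript, and 51.9% of all protein-coding genes had one. The exception was Stat5b. All 8 genes had one in the IDR thresholded list of both replicates, where the share of all genes was 56.4%, in the replicated list (65.1%) and in the pooled pseudoreplicated list (66.3%). In replicate 1 all 8 had one in the IDR thresholded list (52.2% of all genes) and in the pseudoreplicated list (63.5%). In replicate 2 the count was 5 in the IDR thresholded list (45.8% of all genes), without Stat5b, Sh2b3 and Socs3, and 8 in the pseudoreplicated list (62%). The lists come from the same 2 libraries and are not independent.

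These promoters were open but mostly weak. The median signal of the 7 promoter peaks was 5.91 in the main list, and that of all open promoters was 9.78. Stat5a was the only one of the 7 above that median. In the IDR thresholded lists the genes' median was 6.38 against 10.79 for all open promoters in replicate 1, and 6.86, over 5 genes, against 8.0 in replicate 2. The strongest promoter summits of replicates 1 and 2 were 1 to 50 bp apart for 7 of the 8 genes and 933 bp apart for Socs1. The median distance was 30 bp for the 8 genes and 22 bp for all 13053 genes with a promoter peak in both libraries.

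**Figure D1:**
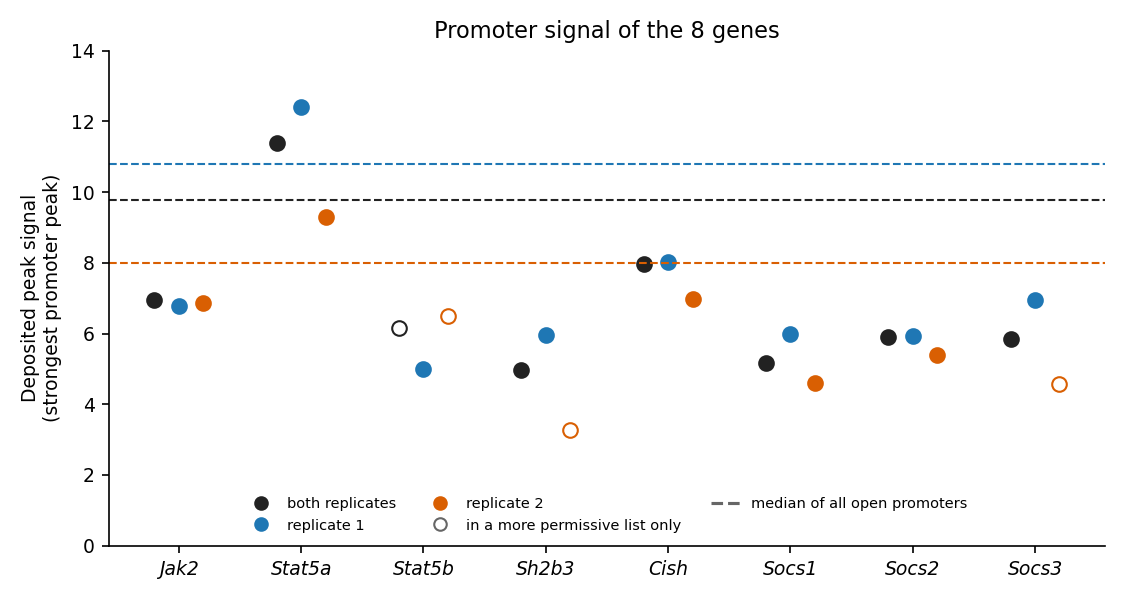
Deposited signal of the strongest promoter peak (vertical axis, no stated unit) of the 8 genes in the main list of both replicates and in each replicate, with open circles where only a more permissive list holds the peak and dashed lines at the median of all open promoters in the list of the same colour. Stat5a lies above the median of the same colour in all 3 cases, and every other gene lies below it.

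Jak2, the kinase (chr19:29251828-29313080, plus strand, mm10), had 1 promoter region at chr19:29251126-29251904. Its summit lay 116 bp upstream of the 5′ TSS, in sequence of 79.6% G and C. The signal was 6.96 in the main list, 6.77 in replicate 1 and 6.86 in replicate 2. Of the open promoters in the same list, 16.9%, 8.8% and 30.9% had a lower signal, so Jak2 ranked higher in replicate 2 than in replicate 1. Of the other Janus kinases, Jak1 had 11.88, Tyk2 had 10.78 and Jak3, the kinase of lymphoid cytokine receptors, had 4.59.

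Jak2 had 3 distal regions, meaning regions with no summit within 1 kb of a protein-coding TSS. The strongest, at chr19:29355492-29355925 (signal 9.10), lay 103921 bp downstream of the 5′-most TSS in an intron of Plgrkt. It was in the IDR thresholded list of each replicate, at 9.06 and 7.29. Another, at chr19:29253822-29254164 (signal 7.43), lay in a Jak2 intron, 2127 bp from the 5′-most TSS and 1514 bp from the nearest. This one was also in the IDR thresholded list of each replicate, at 7.97 and 5.66. An intergenic region 23498 bp upstream had a main-list signal of 9.09. It was 11.95 in replicate 1, while replicate 2 had it only in the pseudoreplicated list, at 5.95. The summit window of this upstream region is shown because a STAT-type match, in capitals, lies 25 bp from its summit.

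Jak2 upstream region, chr19:29228230-29228430, mm10, plus strand: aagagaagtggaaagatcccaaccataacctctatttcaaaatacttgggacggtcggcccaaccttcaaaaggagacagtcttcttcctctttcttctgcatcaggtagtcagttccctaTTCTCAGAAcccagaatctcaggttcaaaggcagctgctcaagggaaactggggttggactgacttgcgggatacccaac

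Stat5a and Stat5b are closely related genes that lie head to head on chromosome 11, and their windows overlap, so regions between them count for both and are counted once in the totals. Stat5a (chr11:100859351-100885169, plus strand) had the strongest promoter of the 8, at chr11:100860149-100860717, with a signal of 11.40 in the main list, 12.42 in replicate 1 and 9.29 in replicate 2. It exceeded 70.0% of open promoters. Its summit lay 57 bp upstream of a TSS that starts 1133 bp inside the gene, and 1076 bp from the 5′-most TSS, which had no summit within 1 kb in any list.

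Stat5b (chr11:100780731-100850724, minus strand) was open at an internal start too. The IDR thresholded list of both replicates, but not the main list, had a peak of signal 6.17 whose summit lay 55 bp upstream of a TSS 28196 bp inside the gene, and 14.4% of open promoters in that list had a lower signal. Replicate 1 had this peak in its IDR thresholded list at 4.99, and replicate 2 only in its pseudoreplicated list at 6.49. Near the 5′-most TSS, peaks of 4.23 (97 bp downstream) and 3.29 (665 bp upstream) appeared in the pooled replicated and pseudoreplicated lists. Replicate 1 had the first of these at 4.67 and replicate 2 the second at 4.08, both in pseudoreplicated lists only.

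The internal promoters of the 2 genes are related in sequence. A local alignment of the 201 bp around each summit joined 102 bp of either gene, with 83 identical bases in 100 gapless columns (83.0%). In Stat5b this segment ends 35 bp before the internal TSS. The longest identical run was 16 bp, and of the 11338 open promoters in the main list 1, that of Stat5a, had this run in its summit window. Stat5a is counted by construction, since the run was taken from it. Stat5b had no promoter peak in that list and could not be counted. How the related sequence bears on the placing of reads was not tested. The Stat5b segment is shown with bases identical in Stat5a in capitals, on the gene's own strand. It holds no TTCNNNGAA.

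Stat5b internal promoter, chr11:100822563-100822664, mm10, minus strand: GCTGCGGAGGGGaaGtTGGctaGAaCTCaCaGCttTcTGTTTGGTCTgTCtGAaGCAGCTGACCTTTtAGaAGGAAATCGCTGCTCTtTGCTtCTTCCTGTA

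The windows of the STAT5 genes held 7 distal regions between them. The strongest, at chr11:100814333-100814881 in a Stat5b intron, had a signal of 9.10 and was in each replicate's IDR thresholded list (9.95 and 6.92). A second Stat5b intron region, 9654 bp from the 5′-most TSS, had 7.69, and 3 regions in introns of the neighbouring Stat3 had 4.76, 5.73 and 5.71. Of those 3, the one of 5.73 was in each replicate's IDR thresholded list, at 7.04 and 4.57. The remaining 2 lay in coding exons on the far side of Stat5b, in Kcnh4 (7.82) and in Hcrt (6.00), and the Hcrt region was in each replicate's list at 7.70 and 4.15.

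Sh2b3 (chr5:121815488-121837646, minus strand) had the weakest promoter signal of the 7, 4.98, at chr5:121836724-121837488, and 2.7% of open promoters had a lower one. The signal was 5.95 in replicate 1. Replicate 2 had the peak only in its pseudoreplicated list, at 3.28. The summit lay 477 bp downstream of the 5′-most of 7 start sites and 310 bp upstream of the nearest. Sh2b3 had 2 distal regions. The stronger, 6.28, lay in its own intron, 13331 bp from the 5′-most TSS and 4426 bp from the nearest. The other, 3.94, lay 1148 bp upstream of the 5′-most TSS. Each was in the IDR thresholded list of 1 replicate only, the first in that of replicate 1 and the second in that of replicate 2. The related adaptor Sh2b1 had a promoter signal of 7.41, and Sh2b2 had no promoter peak in the main list.

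Cish, the first feedback inhibitor (chr9:107296026-107302784, plus strand), had a broad promoter region of 4 merged peaks at chr9:107296127-107296994. The strongest peak had a signal of 7.97 in the main list, 8.02 in replicate 1 and 6.98 in replicate 2, and the 2 libraries placed its summit 1 bp apart. It lay inside the gene, 127 bp upstream of an internal TSS and 557 bp downstream of the 5′-most TSS. A second peak of 6.34 followed within the same region, and the other 2 were weak, at 1.75 and 2.18.

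The Cish region held 4 matches to TTCNNNGAA, in 2 pairs, one upstream and one downstream of the internal TSS. Their centres lay at −47, −36, 58 and 75 bp from it. All 4 lay whole within an open region in all 8 lists. Another match, 496 bp upstream of the 5′-most TSS, was covered in none. Among all 21853 protein-coding genes, 10 (0.0458%) had 4 such matches within 300 bp of each other and within 1 kb of a TSS, while 7.42% had at least 2. The count of 4 is that of Cish itself, so Cish is included by construction and the share is no independent measure of rarity. Of the 11355 promoter regions in the main list, 3 (0.0264%) held 4 or more, and 16.1% held at least 1. Each pair is shown with the matches in capitals.

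Cish upstream pair, chr9:107296654-107296683, mm10, plus strand: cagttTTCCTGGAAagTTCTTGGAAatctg

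Cish downstream pair, chr9:107296762-107296791, mm10, plus strand: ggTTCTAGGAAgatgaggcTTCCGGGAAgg

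Socs2 (chr10:95385362-95417180, minus strand) held a pair of the same form, in which the second match starts 11 bp after the first. Its centres lay 62 and 51 bp upstream of a TSS at position 95416857. The arrangement TTCNNNGAANNTTCNNNGAA is that of the upstream Cish pair and the Socs2 pair, so both genes are counted by construction. It occurred within 1 kb of a TSS in 10 of 21853 protein-coding genes (0.0458%), and 2 of these were Cish and Socs2. It occurred in 2 of 11355 promoter regions of the main list (0.0176%), Cish's among them, and in 0 of 20177 distal regions. The Socs2 pair was covered in 4 of the 8 lists, 3 of both replicates and 1 of replicate 1, but not in the main list or in any list of replicate 2.

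Socs2 pair, chr10:95416884-95416943, mm10, minus strand: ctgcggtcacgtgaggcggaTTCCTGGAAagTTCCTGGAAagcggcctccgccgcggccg

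The peak that gave Socs2 its promoter call in the main list was elsewhere, at chr10:95417940-95418167, 873 bp upstream of the 5′-most TSS. Its signal was 5.91 in the main list, 5.93 in replicate 1 and 5.40 in replicate 2, with summits 3 bp apart, and 7.9% of open promoters had a lower signal. The region over the start site itself, chr10:95416635-95417610, appeared in the IDR thresholded list of both replicates with peaks of 4.13 and 3.86. Replicate 2 split it into 2 peaks that flank the pair of matches, and these had signals of 3.45 and 4.08 in its pseudoreplicated list. With a limit of 500 bp from the TSS, Socs2 had no promoter peak in the main list.

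Socs1 (chr16:10782240-10785536, minus strand) had 2 promoter regions of near-equal signal. One, at chr16:10785003-10786153, spanned the TSS with a summit 39 bp upstream and a signal of 5.08, and the other, at chr16:10786335-10786655, lay 969 bp upstream with 5.18. The first had 5.99 in replicate 1 and 3.78 in replicate 2, and the second 5.53 and 4.59. The order of the 2 was therefore opposite in the libraries, which put their strongest Socs1 summits 933 bp apart. A single match to TTCNNNGAA, 449 bp upstream of the TSS, lay whole within a peak in 6 of the 8 lists, the 4 of both replicates and the 2 of replicate 1. In replicate 2 the peak ended at the edge of the match.

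Socs1 upstream match, chr16:10785961-10786009, mm10, minus strand: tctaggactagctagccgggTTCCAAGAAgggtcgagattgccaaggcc

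Socs3 (chr11:117966079-117970047, minus strand) had a promoter region at chr11:117968879-117969720 with a signal of 5.86 in the main list and 6.94 in replicate 1. Replicate 2 had it only in the pseudoreplicated list, at 4.57, and 7.5% of open promoters had a lower main-list signal. The summit lay 62 bp upstream of the TSS. A match to TTCNNNGAA was centred 5 bp from that summit, the closest of any match in the 45 regions, and a second lay 330 bp upstream of the TSS.

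Socs3 promoter match, chr11:117969219-117969267, mm10, minus strand: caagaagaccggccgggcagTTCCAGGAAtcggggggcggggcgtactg

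**Figure D2:**
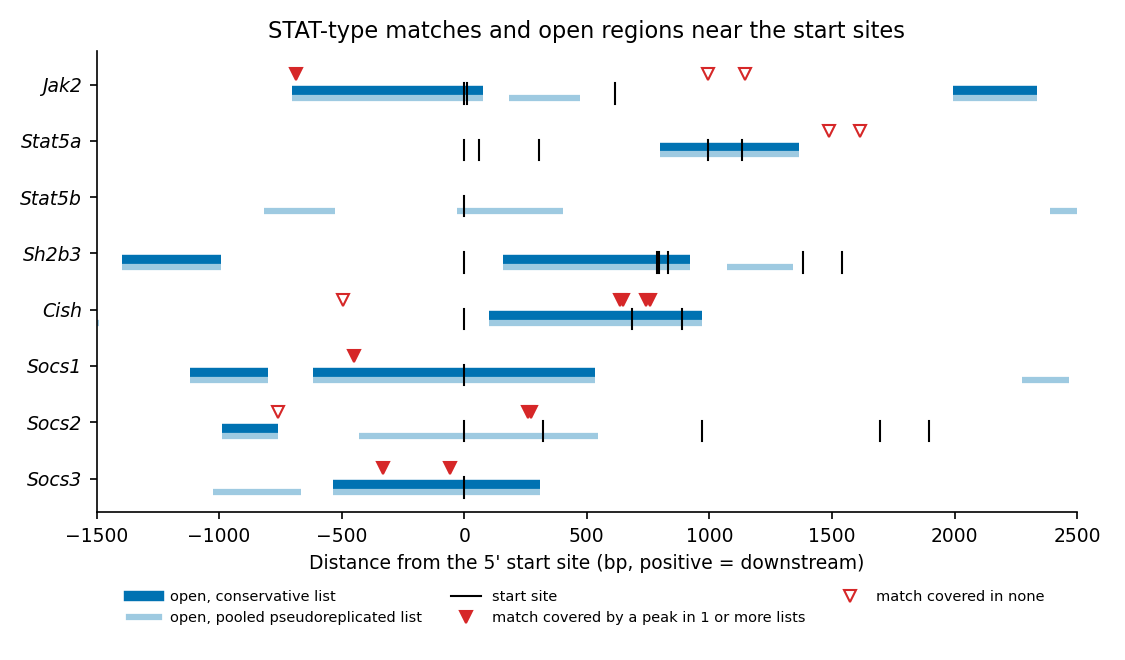
Matches to TTCNNNGAA within 1 kb of a TSS (triangles, filled where a region of 1 or more of the 8 lists covers all 9 bases) and open regions (bars: conservative list dark, pooled pseudoreplicated list light) by distance in bp from the 5′-most TSS of each gene, with every start site in range as a black line. The 4 Cish matches around the internal TSS lie inside the dark bar, another, upstream of the gene, lies in no bar, the close pair of Socs2 lies over a light bar only, and Stat5b and Sh2b3 have no match.

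Across the 8 genes, matches to the STAT palindrome near a start site were found for Jak2, Stat5a, Cish, Socs1, Socs2 and Socs3, and for neither Stat5b nor Sh2b3. The 2 Stat5a matches, 355 and 481 bp downstream of the internal TSS, 2 of the 3 Jak2 matches, 1 of the 5 Cish matches and 1 of the 3 Socs2 matches, 760 bp upstream of the TSS, were covered whole by no region in any list. A match to these letters is common: 57.2% of protein-coding genes had at least 1 within 1 kb of a TSS, and a gene with more start sites has more sequence to search. A match is a description of the sequence and not of a bound site.

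The 4 feedback genes of the SOCS family differed in signal from the 4 other SOCS genes. In the main list Cish, Socs1, Socs2 and Socs3 ranged from 5.18 to 7.97, and Socs4, Socs5, Socs6 and Socs7 ranged from 9.34 to 11.52. The ranges did not overlap in replicate 1, at 5.93 to 8.02 and 9.70 to 12.80. They did not overlap in the pseudoreplicated list of replicate 2 either, at 4.57 to 6.98 and 7.49 to 8.92. All 8 SOCS genes had a promoter peak in the main list (51.9% of all genes). G and C made up 52.7% to 65.7% of the 201 bp around the summit in the 4 feedback genes and 70.1% to 79.1% in the other 4. The places compared differ. The main-list summit used for signal and composition lay 969 bp upstream of the TSS in Socs1 and 873 bp upstream in Socs2. In the other SOCS genes it lay less than 500 bp from a TSS. The part of base composition or of summit position in the difference was not tested, and 1 group of 2 libraries allows no test over animals.

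**Figure D3:**
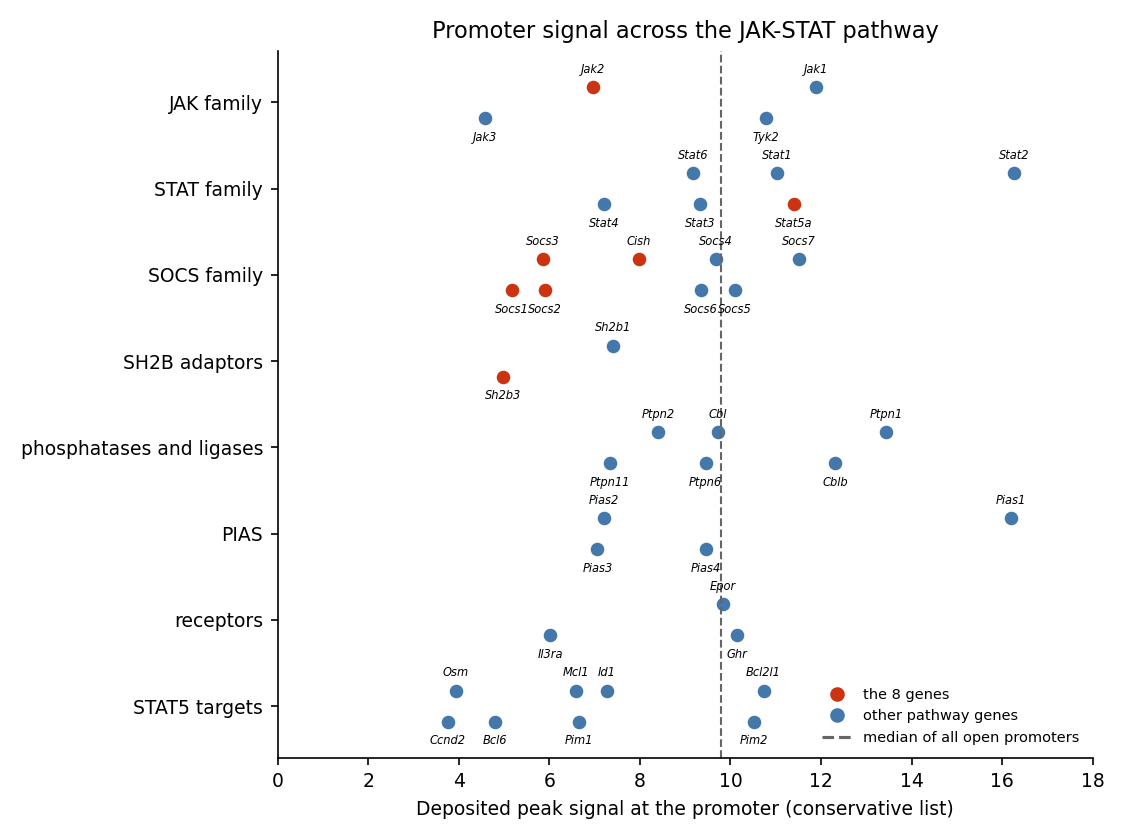
Deposited signal of the strongest promoter peak in the main list (horizontal axis, no stated unit) for the 7 genes with one (red) and for other genes of the pathway (blue), by role, with the median of all open promoters, 9.78, as a dashed line. Within the SOCS family all red points lie left of all blue ones, and in the STAT family only Stat2, at 16.26, lies right of Stat5a.

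Of 38 other pathway genes, 34 had a promoter peak in the main list (51.9% of all genes) and 38 in the pooled pseudoreplicated list (66.3%). The median signal of the 34 was 9.39, near the 9.78 of all open promoters. All 5 other STAT genes were open, with Stat2 the highest, and so were all 6 phosphatases and ubiquitin ligases that regulate the pathway, with the phosphatase gene Ptpn1 highest at 13.43. All 4 PIAS genes, whose proteins bind STATs, had a peak, Pias1 the highest at 16.19.

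Receptors that signal through JAK2 had a promoter peak in 3 of 6 cases in the main list (51.9% of all genes) and in 6 of 6 in the pooled pseudoreplicated list (66.3%), with the growth hormone receptor gene Ghr highest at 10.14, and Csf2rb, Csf3r and Prlr lacked one in the main list. In the IDR thresholded list of both replicates Csf2rb had a peak of 7.38 and Csf3r one of 4.60. All 8 genes listed as STAT5 targets were open, but at a median of 6.62. Their highest was Bcl2l1, which encodes the survival protein BCL-XL, at 10.73. Osm (3.94) and Ccnd2 (3.76) were lowest.

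The 45 regions comprised 21 promoter regions, of which 8 belonged to 7 of the genes, 2 of them to Socs1 and none to Stat5b, and 13 only to neighbours, and 24 distal regions. Of the distal regions 12 were intergenic, 10 intronic and 2 in coding exons. Their median signal was 6.43, and that of all 20177 distal regions was 7.97. The neighbouring promoters were those of Atxn2 and Pheta1 beside Sh2b3, Mapkapk3, Hemk1 and 6430571L13Rik beside Cish, Rab5c and Ghdc beside Stat5b, Pgs1 beside Socs3, Rmi2 beside Socs1, and Insl6 and Plgrkt beside Jak2. Rab5c had the highest signal of these, 13.51, and Plgrkt the next, 12.79.

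**Figure D4:**
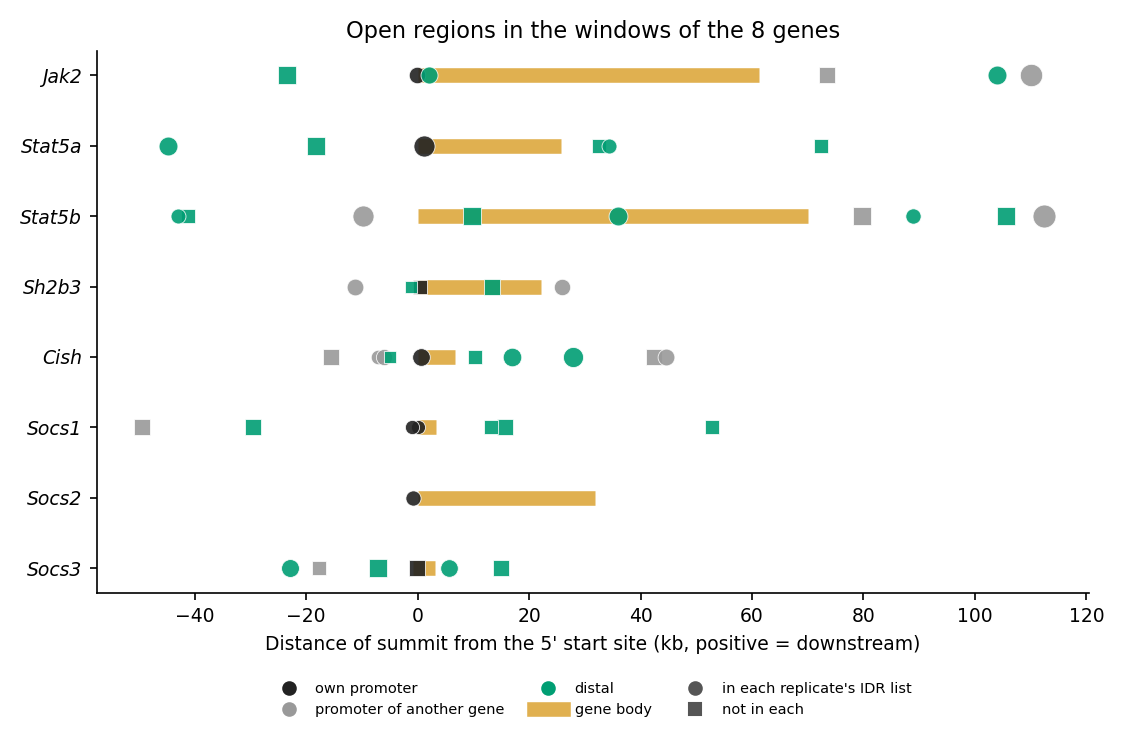
Summits of the 45 main-list regions by distance in kb from the 5′-most TSS of each gene (a region in overlapping windows is drawn for both genes), with symbol area in proportion to signal, circles for regions in the IDR thresholded list of each replicate, squares for the others and bars for gene bodies. Socs2 has its own promoter region and nothing else, while the short genes Cish, Socs1 and Socs3 each have 4 distal regions, all of them outside the gene body.

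In the main list distal regions were dense around Stat5a, Socs1, Socs3, Cish and Stat5b. The windows of Stat5a and Stat5b overlap and held 7 distal regions between them, so these 2 genes are not separate cases. Stat5a had 5 (3.97 per 100 kb of window), Socs1 4 (3.87), Socs3 4 (3.85), Cish 4 (3.75) and Stat5b 6 (3.53), and the median protein-coding gene had 1 (0.93 per 100 kb). The density was lower than theirs for 91.2% to 94.7% of genes. Several of these values moved in the IDR thresholded list of a single library. In replicate 1 Socs1 had 2 (1.94 per 100 kb, with 70.4% of genes lower) and Socs3 2 (1.92, 69.9%). In replicate 2 Stat5a had 2 (1.59, 78.6%), Stat5b 3 (1.76, 82.1%) and Cish 2 (1.87, 85.2%), while Socs3 had 6 (5.77, 99.8%). In the main list Jak2 had 3 (1.86 per 100 kb) and Sh2b3 2 (1.64). Socs2 had 0 in the main list, as did 32.3% of all genes.

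Around Cish the 2 strongest distal regions lay downstream. The one at chr9:107323520-107324035, 27775 bp from the 5′-most TSS, had a signal of 10.33, the highest of the 24. It had 11.90 in replicate 1 and 8.04 in replicate 2. Its nearest TSS was that of Hemk1, at 14531 bp. The other, at chr9:107312669-107313518, 16868 bp downstream, had 8.81, with 10.24 and 6.39. Both were above the median of all distal regions, while the remaining 2 distal regions in the Cish window had 5.08 and 4.01. The one of 4.01 lay nearest a TSS of Mapkapk3.

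Around Socs3 the strongest distal region, of 8.17, lay at chr11:117991695-117992178, 22766 bp upstream in an intron of Pgs1, and another of 7.90 lay 5585 bp downstream. Both were in the IDR thresholded list of each replicate, at 8.39 and 6.91 for the first and 8.32 and 6.99 for the second. Regions 7079 bp upstream (7.65) and 14858 bp downstream (6.20) were in that of replicate 2 only. All 4 distal regions of Socs3 therefore had a higher main-list signal than its promoter, at 5.86. The same held in the main list for Socs1, where the strongest distal region, 29583 bp upstream at chr16:10814770-10815323, had 6.57 and the lowest of the 4 had 5.35. The nearest TSS to that strongest region was of another gene, Gm11172, at 2204 bp. The order was not particular to the feedback genes. In the main list the 3 distal regions of Jak2, at 9.10, 9.09 and 7.43, were also above its promoter, at 6.96. The order of distal above promoter did not hold in each library. In the pseudoreplicated list of replicate 1 the Socs3 promoter, at 6.94, was above the distal region of 6.10, and the Socs1 promoter, at 5.99, was above those of 5.71 and 5.48. In that of replicate 2 the Socs1 promoter, at 4.59, was above a distal region of 3.90. The Jak2 promoter, at 6.86 in the same list of replicate 2, was above distal regions of 5.95 and 5.66.

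The distal Socs1 regions 15651 and 13245 bp downstream and 29583 bp upstream were in the IDR thresholded list of replicate 2 only. Their signals there were 5.66, 5.36 and 6.38. Replicate 1 had the same regions in its pseudoreplicated list at 5.71, 5.48 and 6.48. All 3 regions were therefore found in both libraries, in lists of different stringency. All 24 distal regions of the main list overlapped the pseudoreplicated list of each replicate, so being found in both was not particular to Socs1.

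In the longer pooled pseudoreplicated list Socs3 had 20 distal regions, 19.24 per 100 kb, and 7 genes of 21853 had a higher density. Cish had 17, 15.92 per 100 kb, and 50 genes were denser. The median gene had 5, or 3.76 per 100 kb. Most of the added regions were weak: the median signal of the 20 was 3.70 and that of the 17 was 3.71. Of the 20 Socs3 regions, 9 were in both single-library pseudoreplicated lists, as were 6 of the 17 Cish regions. Socs2 had 3 in this list, the strongest of 5.45, and none of them was in the pseudoreplicated list of each replicate.

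**Figure D5:**
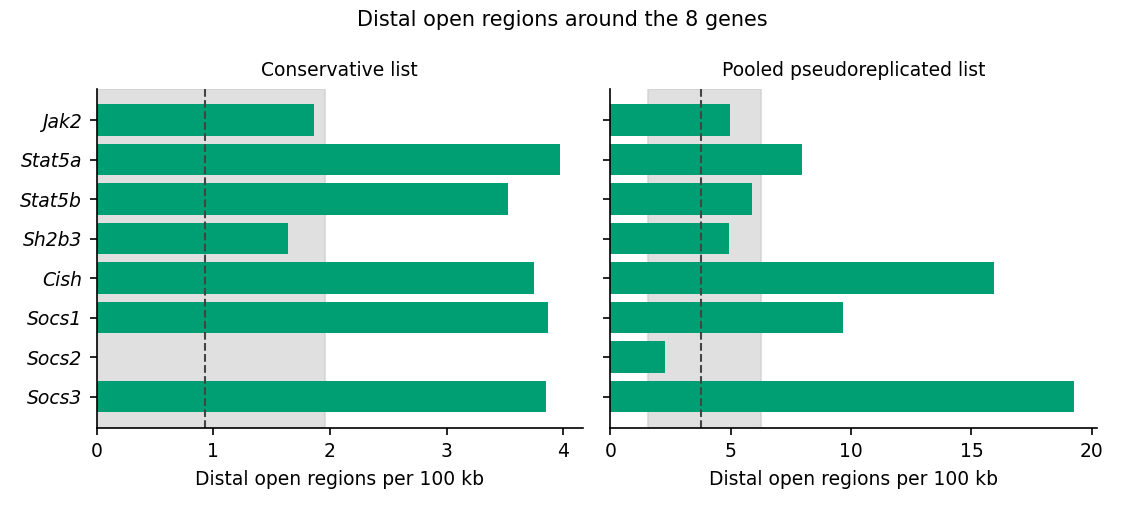
Distal open regions per 100 kb of window (bars) of the 8 genes in the main list (left) and in the pooled pseudoreplicated list (right), with the median of all protein-coding genes as a dashed line and the quartiles as a grey band. Stat5a, Stat5b, Cish, Socs1 and Socs3 lie above the band on the left, and Cish (15.92) and Socs3 (19.24) stand far above it on the right.

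Within 100 bp of the summit, 3 of the 24 distal regions (12.5%) held TTCNNNGAA, and 5.35% of all distal regions did. For promoter regions the counts were 2 of 21 (9.52%), those of Cish and Socs3, against 3.67%. With counts this small the shares are imprecise. The 3 distal regions were that 23498 bp upstream of Jak2, shown above, that 7079 bp upstream of Socs3, and that 13245 bp downstream of Socs1, which held 2 matches. At least 2 matches occurred in 0.154% of all distal regions. The Socs3 and Socs1 windows are shown with the matches in capitals.

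Socs3 upstream region, chr11:117976165-117976365, mm10, plus strand: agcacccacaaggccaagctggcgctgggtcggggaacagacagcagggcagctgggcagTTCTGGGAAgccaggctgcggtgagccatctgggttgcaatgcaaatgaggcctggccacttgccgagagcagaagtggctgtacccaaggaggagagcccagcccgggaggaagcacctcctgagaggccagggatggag

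Socs1 downstream region, chr16:10772191-10772391, mm10, plus strand: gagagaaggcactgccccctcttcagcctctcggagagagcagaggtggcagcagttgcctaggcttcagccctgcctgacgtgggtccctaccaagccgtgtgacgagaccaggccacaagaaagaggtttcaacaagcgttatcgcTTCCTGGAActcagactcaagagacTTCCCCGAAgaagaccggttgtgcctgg

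Letters bound by other blood factors were about as frequent in these distal regions as in all. On either strand, the ETS letters AGGAAG were in 14 of 24 (58.3%, against 50.4%), the RUNX letters TGTGGT in 7 (29.2%, against 30.5%) and the GATA letters AGATAA in 2 (8.33%, against 8.74%). AGGAAG can overlap a STAT match, since both may contain GGAA.

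Of the 40 regions that replicate 1's IDR thresholded list had in the windows, 22 (55%, with a 95% Wilson interval from 39.8% to 69.3%) also lay in replicate 2's list, and 56.5% of all regions did. By class these were 13 of 20 promoter regions (65%, against 79.2% of all) and 9 of 20 distal regions (45%, against 44.9%). In the other direction 22 of 32 did (68.8%, interval 51.4% to 82.0%), below the 87.5% of all regions of replicate 2. The lower share was in distal regions, 9 of 17 (52.9%, interval 31.0% to 73.8%) against 81.5%, while 13 of 15 promoter regions (86.7%) were shared against 95.3%. The intervals cover counting error only. All 32 regions of replicate 2 overlapped a region of replicate 1's pseudoreplicated list, where 99.1% of all regions did.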

How the data were processed

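ATAC-seq peak lists of 2 libraries, deposited by the authors on mm10 per the labels, were analysed. The signal of each peak is the authors' deposited value. The aligner, the peak caller, any shift for the transposase and the scaling of the signal were not given in the sources used here. The conservative IDR thresholded list of both replicates was the main list; 7 other lists were set beside it, and the ranked lists were not used.

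Overlapping peaks were merged into regions. A region was promoter if a summit of its peaks lay within 1 kb of a TSS of a protein-coding transcript (GENCODE M21 on GRCm38.p6, the mm10 sequence), and distal otherwise. Regions were counted as shared at an overlap of at least 1 base. Motifs were searched within 100 bp of summits, in whole regions and within 1 kb of TSSs. A match counted as covered where a region held all its bases. The alignment was made with Biopython 1.88 (local, match 1, mismatch −1). Python 3.11.15, numpy 2.4.6 and scipy 1.17.1 were used. The merging of peaks, the overlap search and the motif search were tested on simulated data. The promoter step was tested there only with the strongest summit of a region, not with every peak summit as counted here. Sequences were read from the GRCm38.p6 genome.

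With 1 group, no test was run between conditions, and all comparisons are descriptions beside the same measure over all genes or regions. The text names the 8 genes, the neighbours with a promoter region in a window, the strongest distal region of each gene and those in each replicate's list, and, per pathway role, the gene of highest promoter signal and those with no peak. Jak3, Tyk2, Osm, Ccnd2, Sh2b1 and the other distal regions, the aligned STAT5 segment, the clusters of STAT-type matches and the tandem arrangement were named after their values were seen. 1 marker of the list of mature and other cells is not reported here. The genes and lists were chosen with earlier results of these data known. Alternatives covered the peak list, the signal, promoter and window limits, the start sites used, the overlap, the motif window and leaving out each replicate.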

Additional observations from a re-analysis of the deposited data

How the results depend on the processing

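Of 118 recomputed values, 99 stayed within the limits set for a change and 19 moved. The number of genes with a promoter peak was 7 in the main list, 3 (Jak2, Stat5a and Cish) when only peaks above the list's median signal of 6.65 were kept, and between 5 and 8 when either replicate was left out. Distal regions numbered 24 in the main list, 65 in the replicated list, 77 in the pooled pseudoreplicated list and 11 among peaks above the median signal, with 17 to 20 when either replicate was left out. The shares of regions found in the other replicate, 55% for replicate 1 and 68.8% for replicate 2, became 85% and 100% against the other replicate's pseudoreplicated list. The share of all 45 regions with TTCNNNGAA was 11.1% within 100 bp of the summit, 28.9% within 250 bp, and 10% to 12.5% when either replicate was left out. Pathway genes with a promoter peak numbered 29 to 36 when either replicate was left out. Single calls that changed were those of Stat5b, present in 3 other lists of both replicates and without replicate 2, of Stat5a, absent at the 5′-most TSS, of Socs2, absent at 500 bp, of Sh2b3 and Socs3, absent without replicate 1, and of Sh2b3, Socs1, Socs2 and Socs3, absent among peaks above the median. The cause of these changes was not tested. No paired analysis was possible because there was only 1 group. Read depth is unknown, so a site missing from a list was not detectable at that list's threshold, and replicate 2's lists are the shorter ones.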
